A study of Sus scrofa with 15 samples.

Results

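The genes of the nuclear pore and of nuclear transport were examined in cloned pig embryos and in the fibroblasts that gave their nuclei. Members were chosen by symbol alone: the nucleoporins, importins, transportins and exportins, together with RAN, RANBP1, RANGAP1, NUTF2, SEC13 and TPR. The rule found 52 of the 28224 known genes of the deposited table, and all 52 could be placed on the pig genome Sscrofa11.1. They were sorted by role into 4 genes of the Ran cycle, 7 importins alpha, 11 importins beta and transportins, 6 exportins and 23 nucleoporins of the pore's parts. NUP62CL was given no role, and no entry of the table carried the symbol RANBP2.

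The nuclear pore is a ring of nucleoporins in the nuclear envelope. An outer ring, the Y complex, lies on both faces, an inner ring lines the pore, and nucleoporins rich in phenylalanine and glycine fill the central channel. Cargo with a nuclear localization signal is bound by an importin alpha, which in turn is carried by importin beta, KPNB1. Exportins carry proteins and RNA outward. RAN, a small GTPase kept in its GTP form inside the nucleus, releases imported cargo there and loads exportins, RANGAP1 and RANBP1 help to turn over its GTP in the cytoplasm, and NUTF2 brings RAN back. KPNA7 is an importin alpha known from oocytes and early embryos of mammals. Oocytes are known to store such transport factors for use before the embryo's own genome is transcribed.

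RNA-seq was analysed from 5 groups of 3 libraries. PFF were pig fetal fibroblasts cultured to passages 2 to 5. Each embryo library came from a pool of 30 embryos made by somatic cell nuclear transfer (SCNT), in which a fibroblast is fused to an enucleated oocyte. SCNT4c and SCNT8c were untreated embryos at the 4- and 8-cell stages. SCNT4c-KG were 4-cell embryos injected 5 h after activation with 1000 ng/µl of mRNA for KDM4A, a demethylase of H3K9me3, and kept to 48 h in 0.1 µM GSK126, an inhibitor of EZH2, which writes H3K27me3. SCNT4c-TDG were 4-cell embryos whose donor fibroblasts carried a doxycycline-inducible vector for TDG, a thymine DNA glycosylase of DNA demethylation, and which received 500 ng/ml doxycycline from 40 to 72 h. The vector cells had been selected with puromycin and were not described as 1 clone. No library of vector cells without doxycycline, or of doxycycline alone, was analysed here. All embryo groups therefore share the oocyte cytoplasm, nuclei from fibroblasts and the pooling, but the donor cells of SCNT4c-TDG carried the vector, and no fertilized embryo was analysed here.

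The values are HTSeq read counts divided by 1 factor for each library, given below as normalized signal. Whole reads could be recovered from them, 20460653 to 22868038 in a library of PFF or SCNT4c, 12354649 to 15390472 in SCNT4c-KG and 17757929 to 19564459 in SCNT4c-TDG or SCNT8c. KDM4A was 1429 to 1476 in SCNT4c-KG against 134 to 313 in SCNT4c, and TDG was 49857 to 59944 in SCNT4c-TDG against 939 to 2541 in SCNT4c. KDM4A was also above every SCNT4c library in SCNT4c-TDG (555 to 918), and TDG was so in SCNT4c-KG (3886 to 4738). The summed signal of 10 fibroblast markers was 3.86e+06 to 4.10e+06 in PFF and 1626 to 5460 in the embryo libraries. Of 9 markers of the oocyte and early embryo, GDF9 and BMP15 were at 0 in every embryo library, and the sum was 8034 to 43438 there against 11.5 to 21.5 in PFF. Single markers of that list differed between the embryo groups: PADI6 was 22896 to 31904 in SCNT4c, 9391 to 14115 in SCNT4c-KG and 982 to 1657 in SCNT4c-TDG, and DPPA3 was 3840.3 to 6149, 22118 to 25536 and 32164 to 38619. In SCNT8c PADI6 was 7817, 5263 and 14234, and DPPA3 was 3410, 1452 and 7308. The 7 cumulus cell markers in the table summed to 40.7 to 475 over all libraries. The labels number the SCNT4c libraries in conflicting ways, and these are called a, b and c here. The descriptions of the SCNT4c-KG samples also carry SCNT4c names, and their titles were followed here.

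One library stood apart from its label. SCNT8c replicate 3 correlated over all features with the SCNT4c libraries at Pearson r of 0.833 to 0.877 but with SCNT8c replicates 1 and 2 at 0.802 and 0.742, while these last correlated with each other at 0.878. The calls of members at the 8-cell stage are therefore given with and without it. Means and sums of SCNT8c and the calls of other pathway genes are given only with it included. A pool with fewer cells of a kind and cells with less RNA cannot be told apart in these libraries, and nothing in the labels says that the pools of a group came from separate donor cultures.

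Of the 52 members, 39 passed the filter on low values (a mean of at least 10) in the embryo libraries, and IPO13 was added in the fit with PFF. The remaining 12 stayed under 30 in every library. IPO4, IPO5, KPNA1, NUP62 and SEC13 were listed at 0 in all 15 libraries, and KPNA6, NUP85, NUP188, NUP210, NUP62CL, RANGAP1 and TPR ranged from 0 to at most 26.6. NUP62, whose product lies in the central channel, and SEC13, which also serves in protein secretion, are used by nearly every cell, so a listed 0 is not read as an absent transcript. An assembled transcript without a gene name overlapped the locus of all 12 of these genes, and of 20 of the other 40. For NUP62, the sum of the gene and these transcripts was 570.5, 574.4 and 511.3 in PFF. In SCNT4c it was 244, 246 and 167, in SCNT4c-KG 2058, 1873 and 1500.5, in SCNT4c-TDG 2225, 1776 and 1595, and in SCNT8c 226, 213 and 173. On this summed scale NUP62 was higher than in SCNT4c by a log2 fold change of 3.05 ± 0.31 (SE) in SCNT4c-KG (limma adjusted p = 4.14e-06) and of 3.09 ± 0.31 in SCNT4c-TDG (limma adjusted p = 4.88e-06). 2 other genes are annotated at that locus, and the strand setting of the counting is not stated.

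Position and sequence were compared next, because the treatments act on chromatin and DNA methylation. Promoter windows of 300 bases, from 250 before to 50 after the annotated start, were read from Sscrofa11.1 for 51 members and 19528 protein-coding genes with RefSeq annotation. The members' windows held a median of 24 CpG (range 1 to 56), against 16 over all genes. Windows with fewer than 10 CpG made up 15.7% of the members' and 36.6% of all. These 8 members were IPO4, KPNA1, KPNA5, KPNA6, KPNA7, NUP160, NUP205 and TNPO2. Searched on both strands, the E-box CACGTG was in 17.6% of the members' windows and 7.93% of all, the GC box GGGCGG in 54.9% and 50.6%, the CCAAT box CCAAT in 39.2% and 35.4%, and the TATA box TATAAA in 13.7% and 10.9%. CCGGAAG, bound by ETS factors, was in 13.7% and 11% of the windows, and TAATCC, bound by PRD-like homeobox factors, in 1.96% and 6.09%. These are descriptions of letters in the windows and not sites of binding.

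The windows of 4 genes are shown because their genes carry the differences described below: RAN, KPNA4 and XPO5 were called higher in both treated groups, and KPNA7 lower. They are written 5′ to 3′ on the strand of the gene, and capitals mark the letters of the motifs named above, in either orientation. RAN lies on the minus strand of chromosome 14 (24312810 to 24318024; window chr14:24317975-24318274, 42 CpG). KPNA4 lies on the minus strand of chromosome 13 (100185081 to 100253077; window chr13:100253028-100253327, 27 CpG). XPO5 lies on the minus strand of chromosome 7 (38530704 to 38569558; window chr7:38569509-38569808, 38 CpG). KPNA7 lies on the minus strand of chromosome 3 (6167382 to 6201282; window chr3:6201233-6201532, 4 CpG).
RAN: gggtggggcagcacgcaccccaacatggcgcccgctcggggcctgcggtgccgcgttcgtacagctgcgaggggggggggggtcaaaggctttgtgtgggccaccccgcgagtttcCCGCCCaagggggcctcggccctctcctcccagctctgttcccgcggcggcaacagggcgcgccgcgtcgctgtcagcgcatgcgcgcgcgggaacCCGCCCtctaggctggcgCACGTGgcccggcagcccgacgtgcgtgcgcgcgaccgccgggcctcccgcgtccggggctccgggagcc
KPNA4: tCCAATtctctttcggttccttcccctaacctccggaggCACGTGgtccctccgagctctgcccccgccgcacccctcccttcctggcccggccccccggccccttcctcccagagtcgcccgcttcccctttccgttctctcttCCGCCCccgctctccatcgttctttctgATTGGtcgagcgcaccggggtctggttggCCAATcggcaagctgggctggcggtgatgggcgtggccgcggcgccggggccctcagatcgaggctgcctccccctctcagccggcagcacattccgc
XPO5: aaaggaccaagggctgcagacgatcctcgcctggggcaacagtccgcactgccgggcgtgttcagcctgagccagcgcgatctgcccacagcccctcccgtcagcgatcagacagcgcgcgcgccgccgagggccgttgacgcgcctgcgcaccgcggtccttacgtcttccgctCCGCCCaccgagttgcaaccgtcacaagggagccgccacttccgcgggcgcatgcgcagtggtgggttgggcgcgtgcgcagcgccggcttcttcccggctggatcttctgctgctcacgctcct
KPNA7: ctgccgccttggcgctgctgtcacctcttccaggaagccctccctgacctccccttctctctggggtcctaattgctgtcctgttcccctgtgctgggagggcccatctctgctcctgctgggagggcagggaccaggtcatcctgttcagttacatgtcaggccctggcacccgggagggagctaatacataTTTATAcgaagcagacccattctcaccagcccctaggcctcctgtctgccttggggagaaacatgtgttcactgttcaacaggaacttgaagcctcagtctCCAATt
The windows of RAN, KPNA4 and XPO5 are rich in CpG, and that of KPNA7 is not. This contrast does not hold for all members called in both treated groups. NUP107 and NUTF2, called lower in both, had 18 and 16 CpG, beside the median of 16 over all genes. NUP133, called higher in both, had 25 CpG and none of the motifs. A tie between CpG and the direction of change was not tested. Both RAN and KPNA4 hold the E-box, XPO5 holds a GC box as its only marked motif, and KPNA7 holds TATAAA on the opposite strand and CCAAT.

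Levels of different genes are compared here only as signal per kb of merged exons. Among all members KPNA7 was the most abundant in SCNT4c, at 53896 ± 6072 per kb (mean ± SD, n = 3), followed by KPNA2, also an importin alpha, at 5945 ± 291, by NUTF2 at 3455 ± 369 and by RAN at 3346 ± 690. In SCNT4c-KG RAN led with 18458 ± 770.2 per kb and KPNA7 was second with 14033 ± 3208. In SCNT4c-TDG RAN reached 26024 ± 869, KPNA2 was second with 6825 ± 897 and KPNA7 at 5597 ± 252. RAN also led in PFF, at 3809.9 ± 27.2 per kb, with KPNB1 second at 3499 per kb. In SCNT8c the mean of KPNA7, 20730.0 ± 20032 per kb, had the highest rank but an SD nearly as large as itself. Summed over all 23 nucleoporins with a role, the level per kb was 8188 ± 2114 in SCNT4c, 8142 ± 1101 in SCNT4c-KG, 8694 ± 203 in SCNT4c-TDG, 7502 ± 121 in SCNT8c and 4171 ± 84.3 in PFF. These sums hold NUP62 and SEC13 at their listed 0, and so leave out the assembled transcripts at the NUP62 locus.

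The make-up of the importin alpha family differed between the groups. KPNA7 was 102177, 116463 and 128182 in SCNT4c, 38048, 26094 and 26163 in SCNT4c-KG, and 12062, 12517 and 11438 in SCNT4c-TDG. It was 26537, 13366 and 93494 in SCNT8c and 4.89, 5.09 and 4.77 in PFF. None of the other groups overlapped SCNT4c, and SCNT8c replicate 3 lay close to it. Of the oocyte markers given above, PADI6 was below SCNT4c in both treated groups and in SCNT8c. DPPA3 was above SCNT4c in both treated groups and overlapped it in SCNT8c. The part of these markers in the values of KPNA7 was not tested. Of the summed importin alpha signal per kb, KPNA7 made up 87.1%, 88.1% and 89.8% in SCNT4c, 79.9%, 74.4% and 67.6% in SCNT4c-KG, 38.0%, 35.0% and 34.7% in SCNT4c-TDG, and 0.06% on average in PFF. The shares of SCNT8c were 79.5%, 61.4% and 88.2%. The family without KPNA7 summed to 7061 ± 240.1 per kb in SCNT4c, 4828 ± 899.8 in SCNT4c-KG, 10019 ± 850 in SCNT4c-TDG and 3834 ± 126 in PFF. In PFF it was KPNA2, KPNA4 and KPNA3 that held 41.9%, 30.0% and 26.9% of the family. These sums and shares hold KPNA1 and KPNA6 at the values of their gene entries, at or near 0, and leave out the assembled transcripts at their loci, which for KPNA1 had a signal of 647 to 791 in PFF and 57.6 to 135 in SCNT4c.

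**Figure D1:**
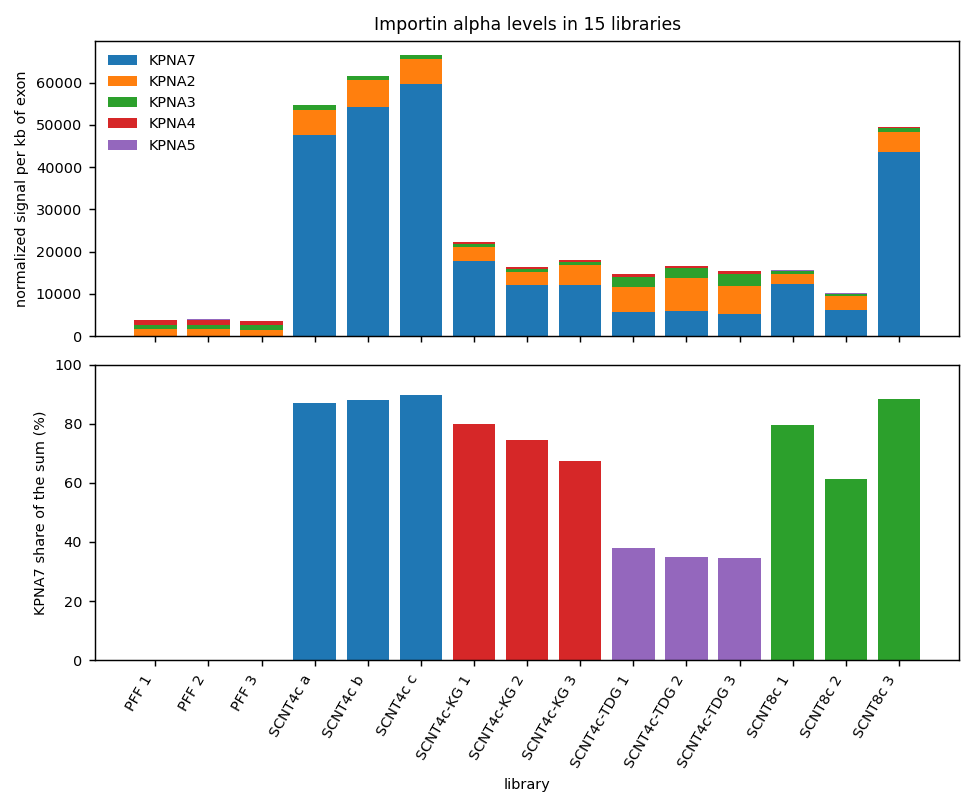
Importin alpha genes in the 15 libraries. Upper panel: normalized signal per kb of merged exons, stacked over KPNA7, KPNA2, KPNA3, KPNA4 and KPNA5 (KPNA1 and KPNA6, at or near 0, are not drawn). Lower panel: share of KPNA7 in the family sum, in percent. The share is 87.1% or more in the 3 SCNT4c libraries, 34.7% to 38.0% in SCNT4c-TDG and near 0 in PFF.

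The first comparison asked which transport genes differed after KDM4A mRNA and GSK126. A gene counted as called when its limma adjusted p, over all features tested, was under 0.05 and its fold change above 2 on the log2(value + 1) scale. Against SCNT4c, 17 of the 39 tested members were called in SCNT4c-KG (43.6%), 9 higher and 8 lower. Over all 18942 features, 37.2% were called, 17.6% higher and 19.6% lower, so the members' share is near the background. Values of the groups did not overlap for 29 members, and for 53.9% of all features. The median log2 fold change (log2FC) of the members was 0.25, against -0.30 over all features.

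In the Ran cycle, 2 of 3 tested genes rose and 1 fell, where 17.6% of all features rose and 19.6% fell. RAN was 6712, 10086 and 9538 in SCNT4c, against 49458, 49739 and 46107 in SCNT4c-KG, with no overlap. The rise was a log2FC of 2.49 ± 0.26 (limma adjusted p = 5.68e-06). RANBP1, which binds RAN in its GTP form, was 2812, 580.2 and 285 in SCNT4c, against 10502, 9221 and 4845 in SCNT4c-KG. All 3 treated libraries were above all controls, though library a lay far above b and c. Its log2FC was 3.32 ± 0.62 (limma adjusted p = 0.000796), 4.25 without library a and 2.60 without library c. NUTF2, the carrier of RAN into the nucleus, fell from 7129, 8773 and 8412 to 3421, 3192 and 3066, a log2FC of -1.32 ± 0.23 (limma adjusted p = 0.000525). RANGAP1 was not tested, being at 0 in every embryo library.

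Among the importins, 1 importin alpha rose and 1 fell, of 5 tested, and 1 importin beta or transportin rose and 2 fell, of 8, beside the same 17.6% and 19.6% of all features. KPNA4 was 204, 121 and 134 in SCNT4c, against 1594, 2122 and 2117 in SCNT4c-KG, a log2FC of 3.68 ± 0.45 (limma adjusted p = 2.32e-05). KPNA7, with the values given above, fell 3.89-fold, by a log2FC of -1.96 ± 0.48 (limma adjusted p = 0.00496). TNPO1, the transportin that imports many RNA-binding proteins, was 9449.8, 11261 and 12635 in SCNT4c, against 1415, 1558 and 2516 in SCNT4c-KG. The groups were far apart, with a log2FC of -2.64 ± 0.33 (limma adjusted p = 3.12e-05). IPO8 fell from 1935, 2483 and 2071 to 524, 581 and 695 (log2FC -1.85 ± 0.54, limma adjusted p = 0.0146), and without SCNT4c library b its limma adjusted p was 0.0519. TNPO2, a relative of TNPO1, rose from 734, 652 and 576 to 1300.3, 1516 and 2100.3 (log2FC 1.30 ± 0.30, limma adjusted p = 0.00347). KPNB1, the common partner of the importins alpha, was 1914 ± 54.0 in SCNT4c and 2952 ± 27.3 in SCNT4c-KG, without overlap. It was not called (log2FC 0.62 ± 0.37, limma adjusted p = 0.187). That error is pooled over all embryo groups, SCNT8c included, where KPNB1 was 3610 ± 1869. The log2FC of KPNB1 was at most 0.78 in any alternative, under the fold change limit. KPNA2 was 13835 ± 677 and 8567 ± 1807 and stayed under the fold change limit (log2FC -0.71 ± 0.27, limma adjusted p = 0.0493).

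Of 6 exportins, XPO5 alone was called, where 37.2% of all features were. XPO5 carries precursors of microRNAs out of the nucleus. Its signal was 3.15, 22.7 and 9.13 in SCNT4c, from 4, 26 and 11 reads, and 1232, 1118 and 1335 in SCNT4c-KG. The groups were apart by a log2FC of 6.94 ± 0.61 (limma adjusted p = 7.69e-07), a size that rests on few reads in SCNT4c and was 6.31 without library a and 7.56 without library b. XPO5 overlaps 3 other annotated genes, and its rise was smaller, 4.29, when it was summed with the assembled transcripts of the locus. XPO1, the exportin of proteins with a leucine-rich export signal, was 7679.9, 7472 and 6593 in SCNT4c, against 3558, 4076 and 4302 in SCNT4c-KG. Its groups did not overlap, but its log2FC of -0.87 ± 0.22 stayed under the limit (limma adjusted p = 0.00593).

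Of 17 nucleoporins tested 4 rose and 4 fell (23.5% each), near the 17.6% and 19.6% of all features. Of the outer ring, NUP133 rose from 66.3, 121 and 98.0 to 351, 346 and 422 (log2FC 2.00 ± 0.38, limma adjusted p = 0.000906). NUP107, its partner in the same complex, fell from 3755, 6486 and 9188 to 1041, 1336 and 1536 (log2FC -2.24 ± 0.31, limma adjusted p = 7.10e-05). NUP160 of that ring fell from 1269 ± 163 to 425 ± 128 (log2FC -1.61 ± 0.32, limma adjusted p = 0.00116). The 3 genes encode parts of 1 complex, and they did not change in 1 direction. In the inner ring, NUP35 rose from 799.8, 874 and 776 to 2174, 2431 and 3243 (log2FC 1.66 ± 0.26, limma adjusted p = 0.000217) and NUP205 fell by a log2FC of -1.07 ± 0.38, with overlapping values. NUP93, which links the inner ring, was 4893 ± 616 and 4049.9 ± 592 (log2FC -0.28 ± 0.24, limma adjusted p = 0.385). In the central channel NUP54 rose (log2FC 1.23 ± 0.32) and NUP58, annotated as a long non-coding RNA, fell (-1.34 ± 0.30), while NUP98 was 938 ± 373 and 1539 ± 629.9 (log2FC 0.70 ± 0.36, limma adjusted p = 0.136). NUP88 of the cytoplasmic face rose (log2FC 1.20 ± 0.29), and NUP153 of the nuclear basket was 655 ± 94.8 and 423 ± 80.7 (log2FC -0.64 ± 0.33, limma adjusted p = 0.135).

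The second comparison asked the same of TDG expression. It shares its SCNT4c libraries with the first, so the results are not independent of each other. In SCNT4c-TDG, 19 of the 39 members were called (48.7%), 14 higher and 5 lower. Over all features, 33.3% were called, 15.7% higher and 17.6% lower. Values of the groups did not overlap for 27 members, and for 58.4% of all features. The members' median log2FC was 0.43, against -0.26 over all features.

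RAN reached 66152, 70691 and 68019.8 in SCNT4c-TDG, above those of the gene in every other library. This was 7.90 times SCNT4c, a log2FC of 2.98 ± 0.26 (limma adjusted p = 1.41e-06). RANBP1 was 3740.5, 2973 and 3039.9, all above SCNT4c, where library a had 2812, and its log2FC was 2.06 ± 0.62 (limma adjusted p = 0.0189). This call was lost without SCNT4c library c (log2FC 1.34, limma adjusted p = 0.0991), library b (1.85, limma adjusted p = 0.0714) or SCNT4c-TDG replicate 1 (1.95, limma adjusted p = 0.0637), and without library a the log2FC was 2.99 (limma adjusted p = 0.000402). NUTF2 was 3968, 4686 and 3514, just past the fold change limit (log2FC -1.003 ± 0.23, limma adjusted p = 0.00422). It was under that limit, at -0.99 to -0.71, with quantile normalization, equal totals, edgeR and DESeq2, and without SCNT4c library b or c or SCNT4c-TDG replicate 1 or 3.

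KPNA7 fell 9.59-fold against SCNT4c, by a log2FC of -3.26 ± 0.48 (limma adjusted p = 0.000114; -2.52 with quantile normalization). KPNA4 and KPNA3, also importins alpha, rose. KPNA4 was 2788, 2714 and 2506 (log2FC 4.15 ± 0.45, limma adjusted p = 9.14e-06), and KPNA3 rose from 5177, 4136 and 4224 in SCNT4c to 10120.2, 10086 and 12063 (log2FC 1.26 ± 0.27, limma adjusted p = 0.00252). KPNA2, with 14146, 18196 and 15301, overlapped SCNT4c (log2FC 0.19 ± 0.27, limma adjusted p = 0.613). Of the importins beta, IPO7 rose from 106 ± 28.2 to 512 ± 105 (log2FC 2.28 ± 0.46, limma adjusted p = 0.00158) and IPO11 from 31.3 ± 14.0 to 139 ± 10.8 (log2FC 2.20 ± 0.72, limma adjusted p = 0.0275). Of the 8 tested, 0 were called lower, where 17.6% of all features were, though TNPO1 (log2FC -0.92 ± 0.33, limma adjusted p = 0.0450) and TNPO2 (-0.74 ± 0.30, limma adjusted p = 0.0680) were below every SCNT4c library. KPNB1 was 3465, 3722 and 3090.4, above all controls but not called (log2FC 0.84 ± 0.37, limma adjusted p = 0.0901). It was called with equal totals, edgeR and DESeq2 (1.10 to 1.13).

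XPO5 was 830.4, 1015 and 642, above SCNT4c by a log2FC of 6.35 ± 0.61 (limma adjusted p = 2.72e-06), by 5.72 without SCNT4c library a and 6.97 without library b, and by 3.74 when summed with the assembled transcripts of its locus. XPOT, the exportin of tRNA, was 169.8, 159 and 168 against 46.5, 24.5 and 29.9 in SCNT4c (log2FC 2.32 ± 0.67, limma adjusted p = 0.0150). That rise was not seen when its 4 assembled transcripts were added (log2FC 0.22, limma adjusted p = 0.757). It also missed the threshold without SCNT4c library b (2.12, limma adjusted p = 0.0551) or SCNT4c-TDG replicate 1 (2.30, limma adjusted p = 0.0534). XPO1 was 3891, 3835 and 3860.2, under all SCNT4c libraries and under the fold change limit (log2FC -0.91 ± 0.22, limma adjusted p = 0.00490).

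Among 17 nucleoporins tested 6 rose (35.3%) and 3 fell (17.6%), against the 15.7% and 17.6% of all features given above. NUP133 was 1361, 1542 and 1494, which was 15.7 times SCNT4c (log2FC 3.97 ± 0.38, limma adjusted p = 2.68e-06). NUP153, which anchors the nuclear basket, was 1933, 2125 and 2282 against 551, 738 and 675 in SCNT4c (log2FC 1.70 ± 0.33, limma adjusted p = 0.00110). NUP54, NUP35, NUP155 and NUP210L also rose, by log2FCs of 1.05 to 1.83. NUP93 fell from 4255, 4937 and 5486 to 1479, 1563 and 1344 (log2FC -1.74 ± 0.24, limma adjusted p = 8.17e-05). NUP214, a cytoplasmic-face nucleoporin, fell from 2317, 1622 and 2288 to 554, 425 and 439 (log2FC -2.12 ± 0.32, limma adjusted p = 0.000137). NUP107 was 2258, 2665 and 2869, also under all SCNT4c libraries (log2FC -1.23 ± 0.31, limma adjusted p = 0.00689), but it was under the fold change limit without SCNT4c library c (-0.93) or with equal totals (-0.96). NUP98, at 1659 ± 269, was not called (log2FC 0.88 ± 0.36, limma adjusted p = 0.0731), but was called without SCNT4c library c (1.18, limma adjusted p = 0.0331) and with quantile normalization, equal totals and DESeq2 (1.03 to 1.15).

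**Figure D2:**
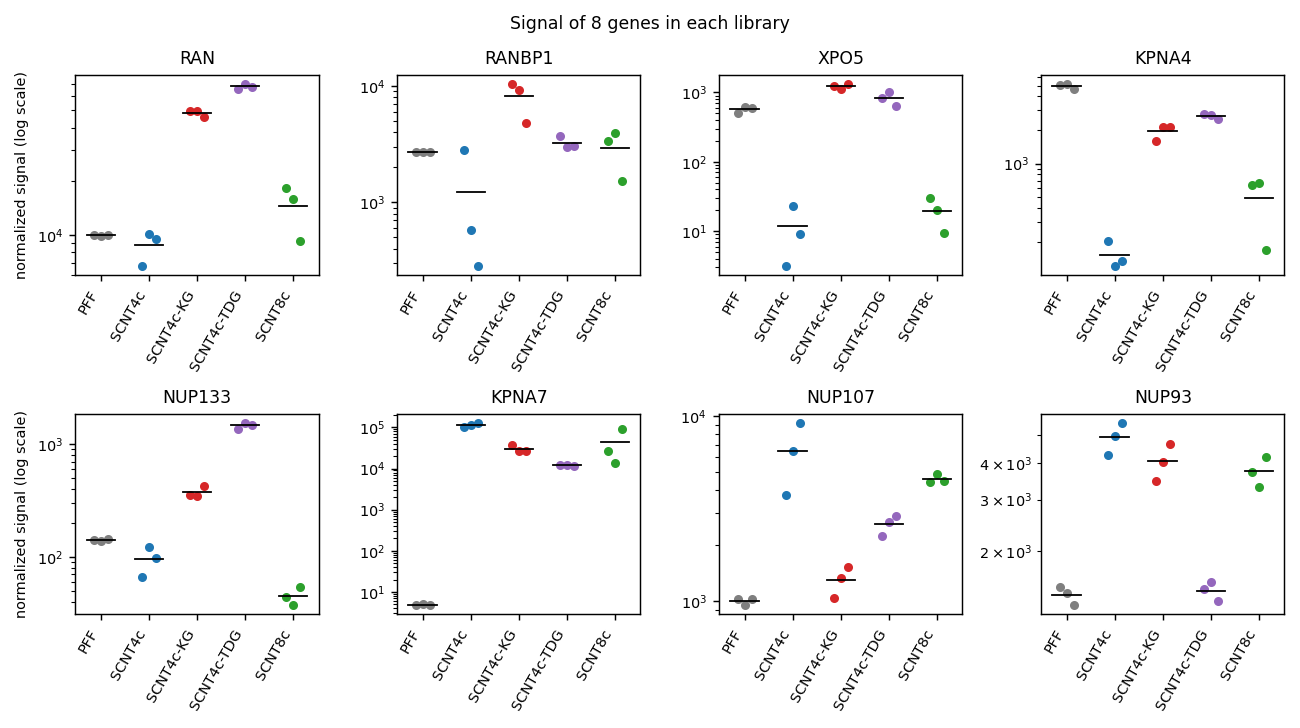
Normalized signal of 8 members in the 15 libraries, on a log scale. Points are libraries and lines are group means, for PFF, SCNT4c, SCNT4c-KG, SCNT4c-TDG and SCNT8c. RAN is 46107 or more in both treated groups and 18305 or less elsewhere, and KPNA7 is about 5 in PFF and 11438 or more in every embryo library.

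**Figure D3:**
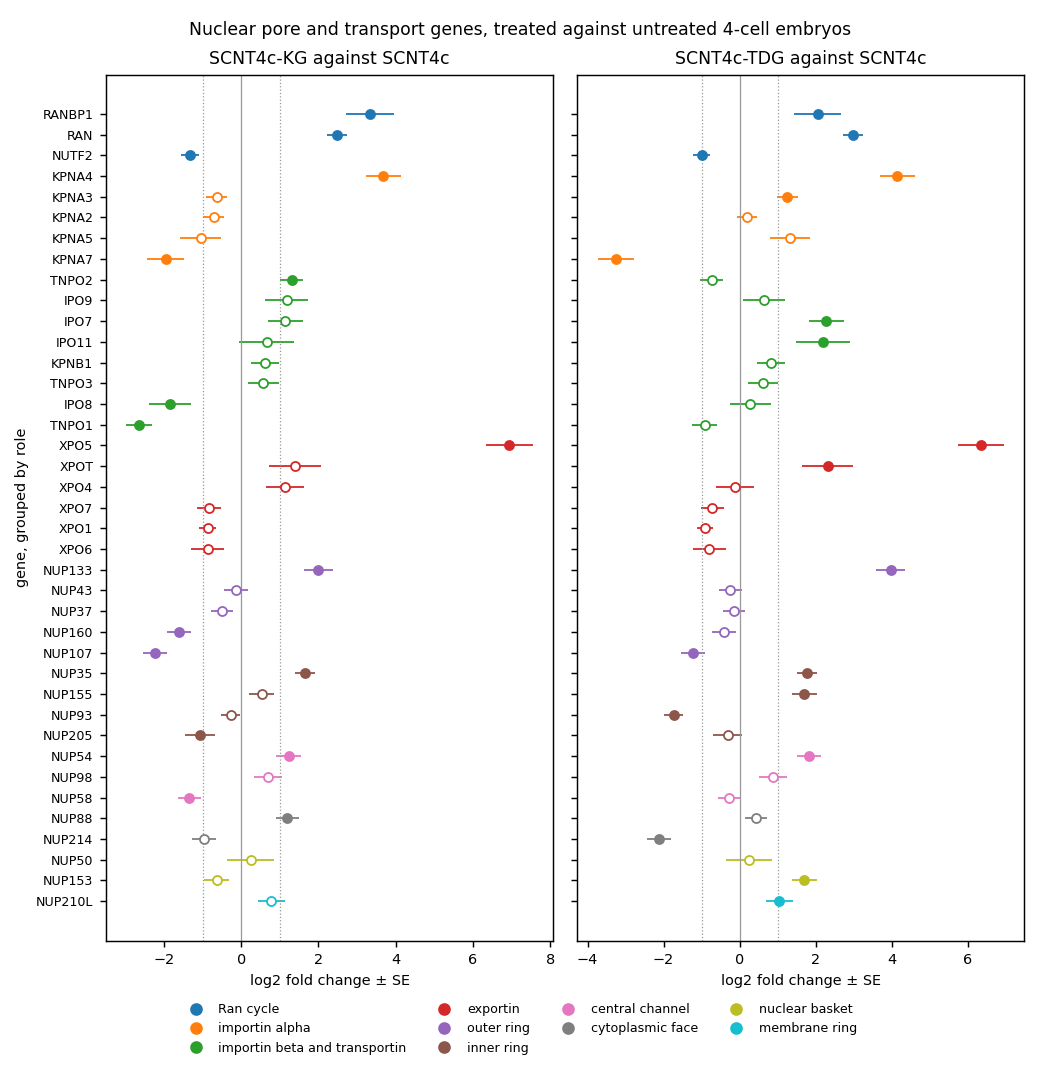
Log2 fold change against SCNT4c of the 39 tested members, ordered by role, for SCNT4c-KG and SCNT4c-TDG. Points are limma estimates, bars are standard errors, filled points were called and dotted lines mark a 2-fold change. XPO5 lies farthest to the right in both panels, with TNPO1 lowest in SCNT4c-KG and KPNA7 lowest in SCNT4c-TDG.

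The treated groups were then compared with each other. Their log2 fold changes use no SCNT4c value. The filter, errors, p-values and calls come from the fit of all embryo libraries, SCNT4c and SCNT8c included, unless stated. A fit of these 2 groups alone called 17 of 42 members (40.5%, against 27.5% of all features), 11 higher and 6 lower in SCNT4c-TDG. In the fit of all embryo libraries, 13 of the 39 members were called (33.3%), 10 higher and 3 lower in SCNT4c-TDG. Of all features 16.2% were called there, 7.07% higher and 9.13% lower. Values of the groups did not overlap for 28 members, and for 44.4% of all features. The median of the members was 0.32 and that of all features -0.02. The largest called difference was in KPNA5, at 367, 266 and 324 in SCNT4c-TDG and 39.2, 103 and 54.1 in SCNT4c-KG (log2FC 2.37 ± 0.53, limma adjusted p = 0.00714). NUP153 was higher by a log2FC of 2.33 ± 0.33 (limma adjusted p = 0.000310), NUP133 by 1.97 ± 0.38 (limma adjusted p = 0.00271) and KPNA3 by 1.89 ± 0.27 (limma adjusted p = 0.000377). IPO8 was 2248, 2439 and 3273 in SCNT4c-TDG, within the range of SCNT4c or above it, and was higher than in SCNT4c-KG by a log2FC of 2.13 ± 0.54 (limma adjusted p = 0.0140). Without SCNT4c-KG replicate 1 or SCNT4c-TDG replicate 3 its limma adjusted p was 0.0533 or 0.0642.

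TNPO1 and TNPO2 differed in opposite directions between the treated groups. TNPO1 was 4312, 5043 and 9115 in SCNT4c-TDG, above the 1415 to 2516 of SCNT4c-KG (log2FC 1.72 ± 0.33, limma adjusted p = 0.00293). TNPO2 was 414, 409.6 and 347, under the 1300.3 to 2100.3 of SCNT4c-KG (log2FC -2.04 ± 0.30, limma adjusted p = 0.000431). NUP93 was lower in SCNT4c-TDG by -1.46 ± 0.24 on the log2 scale (limma adjusted p = 0.00105) and NUP214 by -1.16 ± 0.32 (limma adjusted p = 0.0213). NUP107 was higher, at a log2FC of 1.004 ± 0.31 that only just passed the limit (limma adjusted p = 0.0382), as were NUP160, NUP155 and NUP58, at 1.07 to 1.18. The call of NUP107 was lost without any of SCNT4c-KG replicates 1 and 2 and SCNT4c-TDG replicates 1, 2 and 3 (log2FC 0.85 to 1.10), and that of NUP214 without SCNT4c-KG replicate 1 or 3 or SCNT4c-TDG replicate 2 or 3 (-1.16 to -1.02), with equal totals (-0.79) and with edgeR (-1.004). NUP107 also lost its call with a pseudocount of 10 (0.9993) and with all features above 0 (limma adjusted p = 0.0627). KPNA7 was lower in all SCNT4c-TDG libraries but was not called (log2FC -1.30 ± 0.48, limma adjusted p = 0.0749; -0.59 with quantile normalization). In a fit of these 2 groups alone it was called (limma adjusted p = 0.000173), and so was RANBP1 (-1.26 ± 0.62, limma adjusted p = 0.186 with all groups and 0.00340 with these 2). RAN (0.50 ± 0.26, limma adjusted p = 0.225) was not called, except with quantile normalization (1.24, limma adjusted p = 0.00730), and NUTF2 (0.32 ± 0.23, limma adjusted p = 0.387) was not called. KPNA2 differed by 0.90 ± 0.27 (limma adjusted p = 0.0327), under the fold change limit. It was called with quantile normalization (1.63), equal totals (1.27), edgeR (1.06) and DESeq2 (1.02), and without SCNT4c-KG replicate 3 (1.07). XPO1, whose difference of -0.04 ± 0.22 (limma adjusted p = 0.931) turned to between 0.020 and 0.33 under other scalings and without SCNT4c-KG replicate 3, KPNB1 (0.21 ± 0.37, limma adjusted p = 0.746) and NUP98 (0.18 ± 0.36, limma adjusted p = 0.790; -0.11 without SCNT4c-KG replicate 1) were not called.

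The next comparison asked how these genes differed between the untreated 8-cell and 4-cell embryos. Only 1 of 39 members was called (2.56%), KPNA7, against 5.79% of all features, 2.62% higher and 3.16% lower. KPNA7 was lower in SCNT8c by a log2FC of -1.84 ± 0.48 (limma adjusted p = 0.0387). The call was lost without any 1 SCNT4c library or SCNT8c replicate 1 or 2 (log2FC -1.93 to -1.21, limma adjusted p = 0.0946 to 0.134). At an unadjusted p under 0.05 there were 17 members (43.6%), against 28.9% of all features. DESeq2 on recovered reads called 7 members higher and 1 lower (20.5%, against 14.4% of all features), while edgeR called 1 higher and 0 lower (2.56%, against 4.45%), and KPNA7 passed in neither. Values did not overlap for 15 members, against 23.5% of all features, and the median of the members was -0.10 against -0.31 over all features.

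Without SCNT8c replicate 3, the library that stood apart, 15 members were called (38.5%), 7 higher and 8 lower, against 32.3% of all features, 12.4% higher and 19.9% lower. KPNA7 was then lower by a log2FC of -2.61 ± 0.26 (limma adjusted p = 3.21e-05). IPO8 was 491 and 293 in SCNT8c replicates 1 and 2 and 2365 in replicate 3, the last within the SCNT4c range of 1935 to 2483. Its log2FC without replicate 3 was -2.50 ± 0.28 (limma adjusted p = 6.01e-05). NUP50, XPO6, NUP153, NUP133, NUP160 and KPNA2 were also called lower, by -2.11 to -1.10. KPNA4 was 639 and 669 in replicates 1 and 2 and 167 in replicate 3, against 204, 121 and 134 in SCNT4c. Without replicate 3 it was higher by a log2FC of 2.13 ± 0.28 (limma adjusted p = 0.000110), and KPNB1, at 4414, 4942 and 1473, by 1.29 ± 0.20 (limma adjusted p = 0.000290). RANBP1, IPO9, XPO4, KPNA5 and NUP210L were the other members called higher, by 1.30 to 2.24.

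Several members differed in size but were not called with all 3 libraries. RAN was 18305, 16016 and 9262 in SCNT8c (log2FC 0.69 ± 0.26, limma adjusted p = 0.107), with replicate 3 inside the SCNT4c range. XPO1 was 12465, 10906 and 11611, above every SCNT4c library (log2FC 0.69 ± 0.22, limma adjusted p = 0.0666), and NUP153 was 262, 228 and 419, below every one (log2FC -1.15 ± 0.33, limma adjusted p = 0.0509, and 0.0367 to 0.0497 with a minimum mean of 50 or another pseudocount). KPNA2 was 5644, 7385 and 11214 (log2FC -0.83 ± 0.27, limma adjusted p = 0.0717), and RANBP1 was 3371, 3987 and 1520.3 (log2FC 1.82 ± 0.62, limma adjusted p = 0.0821). Without SCNT4c library a, RANBP1 was called higher (2.75, limma adjusted p = 0.0219). For NUTF2 the log2FC was -0.23 ± 0.23 (limma adjusted p = 0.536; 0.025 in DESeq2). NUP107 had -0.40 ± 0.31 (limma adjusted p = 0.404), NUP93 -0.38 ± 0.24 (limma adjusted p = 0.305), NUP98 0.44 ± 0.36 (limma adjusted p = 0.431) and KPNB1 0.73 ± 0.37 (limma adjusted p = 0.198; called in DESeq2 at 1.19).

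**Figure D4:**
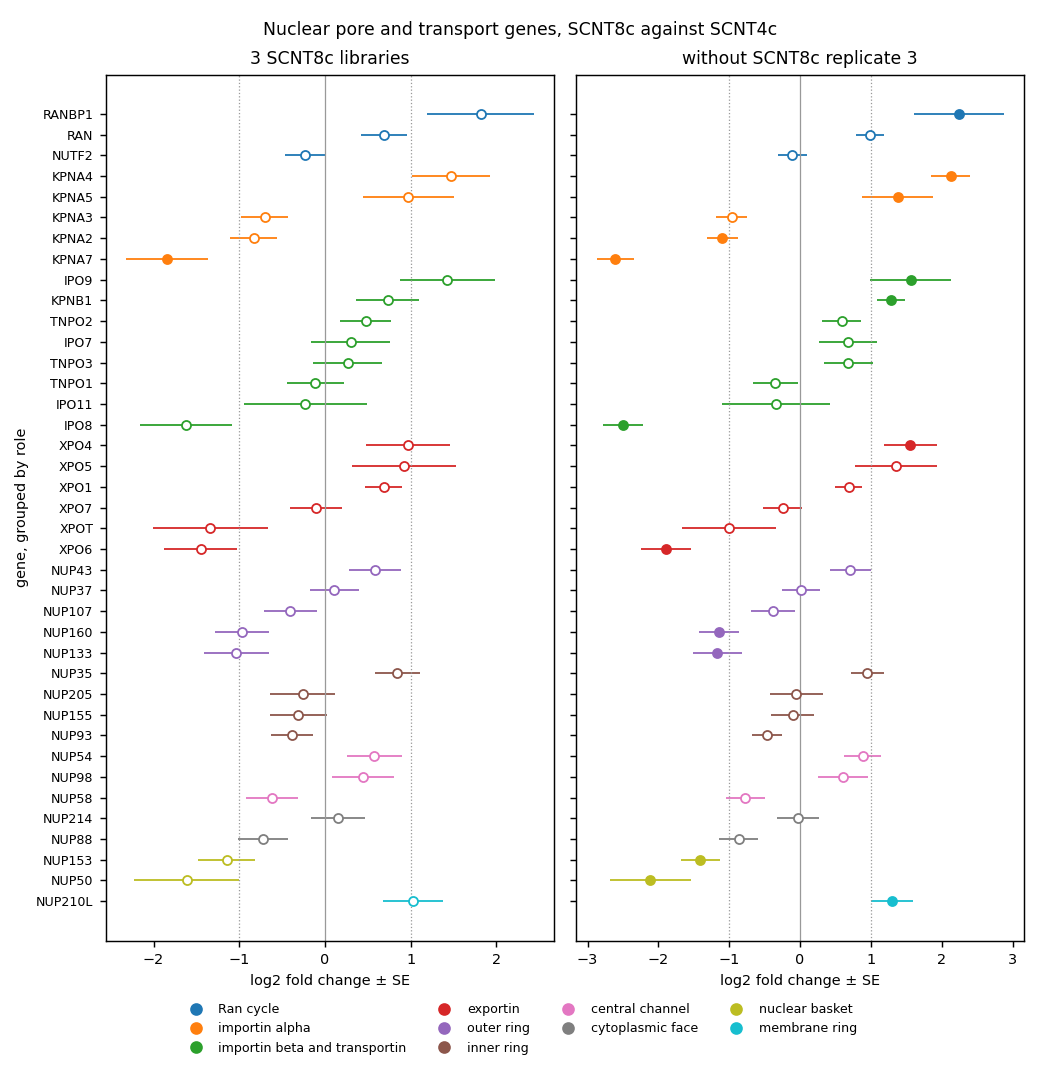
Log2 fold change of SCNT8c against SCNT4c for the 39 tested members by role, with all 3 SCNT8c libraries and without SCNT8c replicate 3. Points are limma estimates, bars are standard errors, and filled points were called, 1 with all libraries and 15 without replicate 3.

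The last comparison set SCNT4c against the donor fibroblasts, and so asked how the embryo's set of transport transcripts differed from that of the cell whose nucleus it received. RNA was extracted from PFF and embryos with different reagents, so cell type and extraction cannot be told apart. Of 40 tested members, 27 were called (67.5%), 9 higher and 18 lower in SCNT4c, against 78.2% of all features, 39.7% higher and 38.5% lower. Values did not overlap for 34 members, and for 84.5% of all features. The median log2FC was -0.52 for the members, 0.07 for all features and -1.12 for known genes. Other scalings shifted the median of all features by up to 0.94, and the values below are relative to the scaling as deposited.

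KPNA7 had 12 reads in the 3 PFF libraries together and 417209 in SCNT4c, a ratio of normalized signal of 23483 with a counting interval (95%) of 13443 to 45447. Its log2FC was 14.25 ± 0.14 (limma adjusted p = 2.38e-07), where the error leaves out the choice of pseudocount and tool, and ran from 12.91 with a pseudocount of 10 to 15.31 with DESeq2. KPNA2 was 3869, 3816 and 3533 in PFF and 13434, 14617 and 13454 in SCNT4c (log2FC 1.89 ± 0.08, limma adjusted p = 3.77e-06). KPNA4 was lower, from 5059.9, 5200.1 and 4704 in PFF (log2FC -5.05 ± 0.22, limma adjusted p = 4.49e-06), and so was KPNA5, by -1.18 ± 0.21 (limma adjusted p = 0.00234). KPNA3 was 4385 ± 142 in PFF and 4513 ± 577 in SCNT4c (log2FC 0.03 ± 0.11, limma adjusted p = 0.789).

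The carriers of the importin beta family and the exportins were called lower or not at all. Of 9 importins beta and transportins tested 7 were lower in SCNT4c, and of 6 exportins 5 were, where 38.5% of all features and 48% of known genes were lower. The 18 members called lower in all became 14 with quantile normalization and 13 with edgeR or DESeq2. KPNB1 was 21735, 21645 and 21568 in PFF and 1854, 1957 and 1933 in SCNT4c, 11.3-fold lower (log2FC -3.50 ± 0.07, limma adjusted p = 4.98e-07). IPO9 was 2239, 2243 and 2038 in PFF and 58.4, 28.8 and 24.9 in SCNT4c (log2FC -5.92 ± 0.34, limma adjusted p = 1.24e-05). XPO5 (502, 624 and 588 in PFF; log2FC -5.83 ± 0.63, limma adjusted p = 0.000208) and XPOT (1327, 1373 and 1311; -5.32 ± 0.27, limma adjusted p = 7.86e-06) followed. Both differences were smaller when the assembled transcripts of the locus were added, at -3.08 for XPO5 (limma adjusted p = 7.95e-05) and -2.50 for XPOT (limma adjusted p = 0.000520). Without SCNT4c library a or b, XPO5 had -5.20 or -6.46. IPO13 had 767 reads in PFF and 2 in SCNT4c, a ratio of normalized signal of 568 with a counting interval (95%) of 157 to 4697, and its log2FC with the locus transcripts added was -5.54. The exception among exportins was XPO1, at 7823, 8028 and 8311 in PFF, whose log2FC of -0.15 ± 0.09 (limma adjusted p = 0.141) became 0.11 to 0.63 under other scalings. TNPO1 was 9260.1 ± 52.9 in PFF and 11115 ± 1598 in SCNT4c (log2FC 0.25 ± 0.12, limma adjusted p = 0.0823).

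Of the 3 tested genes of the Ran cycle, 0 were called by limma between the fibroblasts and the 4-cell embryos, where 78.2% of all features were. RAN was 10018, 9918 and 10056 in PFF (log2FC -0.21 ± 0.16, limma adjusted p = 0.263), and other scalings turned its sign, to between 0.064 and 0.61. RANBP1 was 2708, 2706 and 2704 in PFF, within the range of SCNT4c (log2FC -1.80 ± 0.80, limma adjusted p = 0.0769). Without SCNT4c library a it was lower in SCNT4c (log2FC -2.73, limma adjusted p = 0.00103). NUTF2 was 4474, 4707 and 4489.7, lower than in every SCNT4c library (log2FC 0.83 ± 0.10, limma adjusted p = 0.000408). It stayed under the fold change limit there, but was called higher in SCNT4c with quantile normalization (1.16), equal totals (1.45), edgeR (1.58) and DESeq2 (1.62).

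Of 17 nucleoporins tested 7 were higher in SCNT4c (41.2%) and 4 lower (23.5%). Of all features 39.7% were higher and 38.5% lower, and of known genes 29.8% and 48%. The nucleoporins' share higher is near that of all features and above that of known genes, and their share lower is below both. They are given by their place in the pore. In the outer ring 3 of 5 tested genes were higher in SCNT4c and 0 lower: NUP37 rose from 276, 276 and 312 to 2549, 4994 and 4655 (log2FC 3.76 ± 0.28, limma adjusted p = 3.70e-05), NUP107 from 1033, 951 and 1024 (2.60 ± 0.32, limma adjusted p = 0.000390) and NUP43 from 596 ± 24.3 to 2362 ± 654 (1.94 ± 0.24). Both cytoplasmic-face genes were higher, NUP214 from 274, 311 and 300.3 in PFF (log2FC 2.79 ± 0.19, limma adjusted p = 2.40e-05) and NUP88 by 1.27 ± 0.30. The inner ring was divided: NUP35 (89.2, 79.0 and 120.4 in PFF; log2FC 3.09 ± 0.22, limma adjusted p = 2.84e-05, and 3.94 with the locus transcripts added) and NUP93 (1.78 ± 0.13, limma adjusted p = 3.71e-05) were higher and NUP155 lower (-1.99 ± 0.23). In the central channel NUP98, which also serves as a mobile nucleoporin inside the nucleus, was lower by -2.46 ± 0.27 (limma adjusted p = 0.000228) and NUP58 by -1.44 ± 0.19. NUP50 of the basket was lower by -2.79 ± 0.43, and NUP153 (log2FC -0.42 ± 0.16, limma adjusted p = 0.0508) was not called and turned to 0.20 to 0.61 under other scalings.

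**Figure D5:**
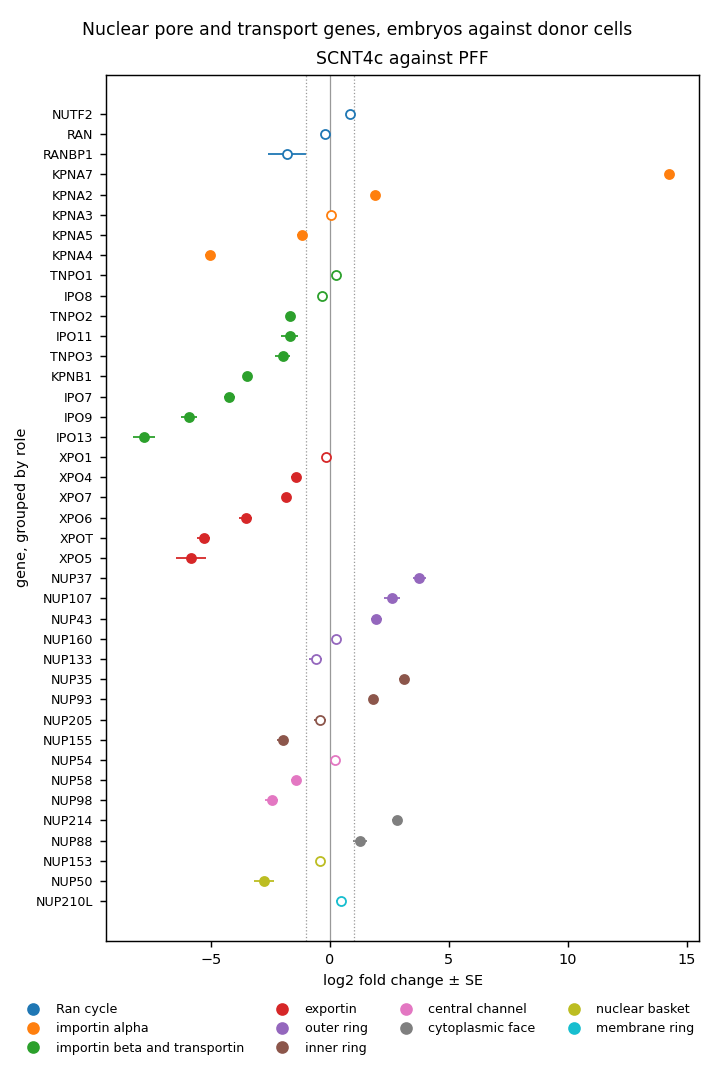
Log2 fold change of SCNT4c against PFF for the 40 tested members, ordered by role. Points are limma estimates, bars are standard errors, filled points were called and dotted lines mark a 2-fold change. KPNA7 lies at 14.25, and 12 of the 15 tested importins beta, transportins and exportins lie below the lower dotted line as called points.

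The levels of the members chosen as carriers of the result can be placed in order over the 5 groups. For XPO5 the order was SCNT4c-KG, SCNT4c-TDG, PFF, then SCNT8c and SCNT4c, whose values overlapped. KPNA4 was highest in PFF, followed by SCNT4c-TDG, SCNT4c-KG, SCNT8c and SCNT4c, and only the values of the last neighbours overlapped. For RAN the order was SCNT4c-TDG, SCNT4c-KG, SCNT8c, PFF and SCNT4c, and the last 3 overlapped. NUP133 was highest in SCNT4c-TDG, followed by SCNT4c-KG, PFF, SCNT4c and SCNT8c, and no neighbours overlapped. These 4 genes were chosen after their values were seen.

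Of 19 other genes of the pathway that the symbol rule leaves out, 17 were in the table and 11 were tested. In SCNT4c-KG 4 were called higher and 3 lower (63.6%, against 37.2% of all features), and in SCNT4c-TDG 2 and 1 (27.3%, against 33.3%). In SCNT8c 1 was higher and 0 lower (9.09%, against 5.79%), between the treated groups 3 and 3 (54.5%, against 16.2%), and in SCNT4c against PFF 2 and 2 (36.4%, against 78.2%). RAE1, which helps to export mRNA, was 51139 ± 10496 in SCNT4c, 18132 ± 829.9 in SCNT4c-KG (log2FC -1.47 ± 0.28, limma adjusted p = 0.000833) and 4751 ± 344 in SCNT4c-TDG (-3.41 ± 0.28, limma adjusted p = 6.66e-07). CSE1L, the exportin that returns importin alpha to the cytoplasm, was 438 ± 77.9 in SCNT4c and was higher in SCNT4c-KG by a log2FC of 1.71 ± 0.44 (limma adjusted p = 0.00681) and in SCNT4c-TDG by 3.07 ± 0.44 (limma adjusted p = 9.35e-05). NDC1, a membrane nucleoporin, was lower in SCNT4c-KG by -1.18 ± 0.25 (limma adjusted p = 0.00171) and higher in SCNT4c than in PFF by 3.82 ± 0.13 (limma adjusted p = 1.61e-06).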

How the data were processed

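The deposited values are a normalized signal: the authors counted reads per feature with HTSeq and divided each library by 1 factor. Per the methods and the submitters' processing notes, reads were trimmed with Trimmomatic 0.39, aligned to Sscrofa11.1 with STAR 2.5.3a and assembled with StringTie 2.1.2. RNA came from TRIzol (PFF) or PicoPure (embryos) and was amplified with a SMARTer kit. Strand setting and batches are not given in the sources used here. Of 43535 entries, 241 repeats were removed. All values were whole multiples of 1 read (tolerance 0.01 read), so reads were recovered by division. Those reads rest on amplified cDNA, and intervals cover counting error only.

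Values were tested as log2(value + 1) with limma 3.58.1 (R 4.3.3), with an intensity trend, for features with a mean of at least 10. The 12 embryo libraries were fitted together, and PFF with SCNT4c in a fit of 6. The spread within SCNT8c, replicate 3 included, therefore enters the errors and p-values of every embryo comparison. Fits of 2 groups alone leave it out of the comparisons of 4-cell groups. They called 20 of 40 members in SCNT4c-KG against SCNT4c (50%, against 41% of all features). In SCNT4c-TDG against SCNT4c they called 20 of 39 (51.3%, against 47.6%). P-values were adjusted over all features (Benjamini-Hochberg), and ± beside a log2 fold change is its standard error. On this scale the change of low genes is understated. With 3 against 3 libraries the smallest exact two-sided permutation p is 0.1, so none is given for single genes. P-values measure the spread between these libraries, which may be technical. The design assumed normalized values. edgeR 4.0.16 (TMM) and DESeq2 1.42.0 on recovered reads, other pseudocounts (0.1, 10), filters (all features above 0, a mean of 50), quantile normalization, equal totals, no fold change limit, 2 groups alone, sums with assembled transcripts, longest transcripts in place of merged exons, and each library left out in turn were alternatives. The test was checked on simulated reads for SCNT4c-KG against SCNT4c and SCNT4c against PFF. Those had few changed genes, the same dispersion for every gene and no outlier library. These data differ in all of that, so the check does not carry over to them.

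Full statistics go to 16 representatives of the roles where tested, and, per comparison, to the 5 called members that rose most and the 5 that fell most, if groups did not overlap and the higher one averaged 100 or more. The members, lists and windows were chosen with earlier results of these data known. Promoters came from RefSeq's table for Sscrofa11.1, and lengths from its annotation (Python 3.11.15, numpy 2.4.6, pandas 2.3.3, matplotlib 3.10.9). The locus of 24 of the 52 members overlaps another annotated gene on either strand, among them XPO5, XPOT, NUP54, NUP88, NUP98, TNPO1 and TNPO2, and reads of such genes cannot be told apart.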

Additional observations from a re-analysis of the deposited data

How the results depend on the processing

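Counts of called members moved by more than 1.5 times as follows. In SCNT4c-TDG against SCNT4c, the 5 lower members became 3 when libraries were scaled to the same total, and 3 to 5 with each library left out in turn. In SCNT8c against SCNT4c, the 0 higher members became 1 with a minimum mean of 50, with quantile normalization and with edgeR, and 7 with DESeq2, and lay between 0 and 7 with each library left out. The 1 lower member became 3 with a pseudocount of 10 or a minimum mean of 50, and 0 with all features above 0, with edgeR and in a fit of the 2 groups alone. It lay between 0 and 8 with each library left out, 8 without SCNT8c replicate 3 and 0 without any other of the 6. Between SCNT4c-TDG and SCNT4c-KG, the 10 higher members lay between 5 and 10 with each library left out (5 without SCNT4c-KG replicate 1 or SCNT4c-TDG replicate 3, 6 without SCNT4c-TDG replicate 2), and the 3 lower between 2 and 3. The 3 lower became 6 in a fit of these 2 groups alone and also 6 with the replicate block, under which 11 were higher. In SCNT4c-KG, SCNT4c-TDG and SCNT8c, libraries with the same number showed little shared deviation (r from -0.061 to 0.195). With 3 libraries a group this cannot exclude that equal numbers share a batch, and SCNT4c was not examined. With the conflicting SCNT4c numbers no other replicate block could be fitted. In SCNT4c against PFF, the 9 higher members became 14 with DESeq2 and stayed at 9 with each library left out.

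Scaling shifted the median of all features by up to 0.22 in SCNT4c-KG, 0.28 in SCNT4c-TDG, 0.37 in SCNT8c, 0.36 between the treated groups, and 0.94 in SCNT4c against PFF, where the members' split of 9 higher and 18 lower became 13 and 14 with quantile normalization, 11 and 15 with equal totals, 12 and 13 with edgeR and 14 and 13 with DESeq2. The split of SCNT4c-TDG, 14 and 5, became 17 and 3 with equal totals, 16 and 4 with edgeR or quantile normalization and 17 and 4 with DESeq2, and that of SCNT4c-KG, 9 and 8, became 13 and 7 with DESeq2. Directions of uncalled genes turned for NUTF2 in SCNT8c (log2FC 0.025 with DESeq2), for NUP98 between the treated groups (-0.11 without SCNT4c-KG replicate 1, up to 0.48 without replicate 3) and for XPO1 there (0.25 with quantile normalization, 0.33 with equal totals, 0.12 with edgeR, 0.089 with DESeq2, and from -0.12 without SCNT4c-KG replicate 1 to 0.020 without replicate 3). In SCNT4c against PFF, under these 4 settings in that order, XPO1 had 0.11, 0.47, 0.59 and 0.63, RAN 0.064, 0.41, 0.57 and 0.61, and NUP153 0.61, 0.20, 0.34 and 0.38. Of 1278 single values of the named genes under an alternative, 1205 kept their call, 42 lost it and 31 gained one. The cause of these differences was not tested. KPNA7 in SCNT8c stayed past the threshold in 6 of 16 alternatives. The low values of the 12 members without a test were not traced to depth, and XPO5 in SCNT4c rests on 4 to 26 reads a library.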

Other observations

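Members without a test of their own entry had values when summed with the assembled transcripts at their locus, a setting in which neighbouring genes may share reads. NUP188 of the inner ring was 4.11 ± 1.30 in SCNT4c (SD, n = 3) and 50.8 ± 35.1 in SCNT4c-KG (log2FC 3.12, limma adjusted p = 0.00576), and 28.1 ± 5.71 in SCNT4c-TDG (2.52, limma adjusted p = 0.0207). NUP85 of the outer ring, whose locus overlaps 14 other annotated genes, was 387 ± 166 in SCNT4c and 127 ± 31.0 in SCNT4c-TDG (log2FC -1.55, limma adjusted p = 0.0151). IPO4 was 587 ± 89.8 in SCNT4c and 266 ± 16.2 in SCNT4c-TDG (log2FC -1.13, limma adjusted p = 0.0146). Against PFF, SCNT4c was lower for IPO5, at 210.0 ± 38.9 against 2066 ± 24.3 (log2FC -3.31, limma adjusted p = 9.16e-06), and for KPNA1, at 106 ± 42.0 against 718 ± 71.9 (log2FC -2.84, limma adjusted p = 0.000437), and NUP62 (-1.35, limma adjusted p = 0.00128) and NUP188 (-1.72, limma adjusted p = 0.0212) were lower too. In the same comparison NUP85 was higher, at 387 ± 166 against 74.7 ± 31.0 (log2FC 2.36, limma adjusted p = 0.00212), and so was KPNA6 (1.27, limma adjusted p = 0.00873). TPR, a gene of nearly every cell, was listed at 0 in all untreated embryo libraries, at 24.5, 26.6 and 15.7 in SCNT4c-KG and at 0.836, 4.60 and 3.06 in SCNT4c-TDG, and its 0 is not read as an absent transcript.

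The signal per kb of the 6 exportins summed to 1496 ± 156 in SCNT4c, 1095 ± 89.7 in SCNT4c-KG, 994 ± 42.6 in SCNT4c-TDG, 2117 ± 108 in SCNT8c and 4062 ± 51.3 in PFF. XPO1 made up most of the sum in the embryo groups. It alone was 1129 ± 89.9 in SCNT4c, 620 ± 59.4 in SCNT4c-KG, 602 ± 4.39 in SCNT4c-TDG, 1816 ± 122 in SCNT8c and 1254 ± 38.1 in PFF.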
